A study of Mus musculus with 36 samples.

Results

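Tumours of the Lewis lung carcinoma line (LLC, derived from a mouse lung cancer and grown in host mice) differed in how strongly they carried transcripts of macrophages, and the 9 tumours with the highest macrophage score were compared with the 9 with the lowest. The score was the mean of the log2 normalized intensities, as deposited by the authors and floored at 64, of C1qb and C1qc (chains of complement C1q), Lyz2 (lysozyme of myeloid cells) and Laptm5 (a lysosomal membrane protein of leukocytes). Of 30 tumour arrays, 28 were ranked, and arrays with a 75th percentile of unnormalized signal of 110 or less were left out. The 10 tumours between the groups are called middle-ranked. The series held 36 arrays, of which 6 were technical controls hybridised with LLC cell RNA (2 batches of 3).

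The groups were selected on measured values of the same arrays. The score genes are therefore left out of all results, and the differences of other genes describe what accompanied the score. Such differences are no independent evidence for it. Each array held 1 tumour of a male mouse. Labels and files give no batch for any tumour. The series text speaks of biological replicates, and the column headers give each tumour its own number. Neither states that each number marks a separate mouse, so p-values measure only the spread between these samples.

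The macrophage-high tumours were middle-aged irradiated replicates 1 and 2, middle-aged unirradiated replicates 2, 3 and 5, young irradiated replicates 1 and 3, and young unirradiated replicates 3 and 9. The macrophage-low tumours were middle-aged unirradiated replicates 1 and 6, young irradiated replicates 2 and 5, and young unirradiated replicates 1, 6, 7, 8 and 10. Irradiated mice had received iron ions (56Fe, a heavy ion found in space radiation), with 5 exposures of 0.2 Gy, and the other mice no irradiation. The labels call the ages young and middle-age, and the column headers write old for the latter.

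The score ran from 12.84 to 13.34 with a median of 12.97 in macrophage-high tumours, and from 11.73 to 12.61 with a median of 12.28 in macrophage-low tumours. The middle-ranked tumours lay between 12.64 and 12.79. At the upper edge, young irradiated replicate 1 was the last tumour inside the macrophage-high group at 12.84, and middle-aged unirradiated replicate 4 was the first outside it at 12.79. At the lower edge, young unirradiated replicate 7 was the last inside the macrophage-low group at 12.61, and middle-aged irradiated replicate 4 was the first outside it at 12.64. The edges thus separated tumours that differed by little, and most of the spread lay among the macrophage-low tumours. Among the score genes, Lyz2 had a median of 13.86 in macrophage-high tumours and 13.01 in macrophage-low tumours, and C1qb had medians of 12.53 and 11.74 in the same order. All 4 score genes were detected on all 30 tumour arrays and on 0 of the 6 LLC cell arrays.

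Of the macrophage-low tumours, 2 had arrays that stood apart. Middle-aged unirradiated replicate 1 and young irradiated replicate 2 had a 75th percentile of unnormalized signal of 863 and 1123, against 175 to 334 on the macrophage-high arrays and 170 to 334 on the other macrophage-low arrays. By the authors' values these bright arrays scored 12.04 and 11.76, at ranks 26 and 27 of 28. When the same 4 genes were read from the values used below (background-corrected and quantile-normalized, called neqc values), they scored 12.78 and 12.94, at ranks 13 and 4. Their place in the macrophage-low group thus depended on the normalization. Differences of genes and medians of lists are therefore given with all 18 tumours and with the bright arrays left out, which leaves 9 macrophage-high against 7 macrophage-low tumours. Further probes of a gene are given with all 18 only.

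**Figure D1:**
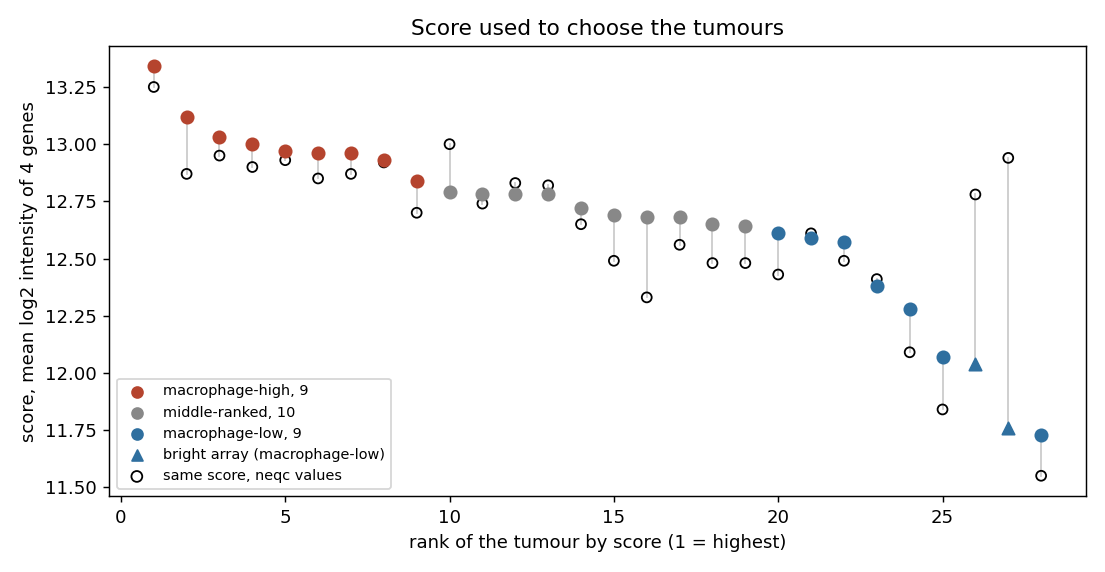
The vertical axis is the score in log2 intensity and the horizontal axis the rank of each of the 28 tumours. Filled symbols show the authors' values by group, and open circles the same score from neqc values. The triangles, the bright arrays at 12.04 and 11.76, moved furthest, to 12.78 and 12.94.

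Macrophages are phagocytes that enter tumours as blood monocytes or descend from cells resident in the tissue, and they depend on signalling through the receptor encoded by Csf1r. They make complement C1q, carry receptors for the Fc part of antibodies, digest what they take up in lysosomes, and can present peptides on MHC class II. Neutrophils are the other abundant phagocytes of many transplanted tumours and share some genes with macrophages, Lyz2 among them. The transcription factors PU.1 and C/EBP direct gene expression in both cell types.

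Promoters of genes from both sides of the comparison are shown because myeloid genes moved in opposite directions. Each is the stretch of 250 bases before the annotated start from RefSeq (GRCm38.p6), 5′ to 3′ on the strand of the gene. Capitals mark matches to GAGGAA, the core of PU.1 motifs, or to TTGCNNAA, the C/EBP motif, each searched on both strands. Hcls1 (chr16:36934733-36934982, plus strand) and Pltp (chr2:164857709-164857958, minus strand) were higher in macrophage-high tumours. Slpi (chr2:164356508-164356757, minus strand) and S100a9 (chr3:90695722-90695971, minus strand) were lower.
Hcls1: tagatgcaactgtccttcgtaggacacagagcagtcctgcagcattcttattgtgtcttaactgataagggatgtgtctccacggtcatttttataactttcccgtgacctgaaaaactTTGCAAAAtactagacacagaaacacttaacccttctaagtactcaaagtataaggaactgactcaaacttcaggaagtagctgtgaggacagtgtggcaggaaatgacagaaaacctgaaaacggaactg
Pltp: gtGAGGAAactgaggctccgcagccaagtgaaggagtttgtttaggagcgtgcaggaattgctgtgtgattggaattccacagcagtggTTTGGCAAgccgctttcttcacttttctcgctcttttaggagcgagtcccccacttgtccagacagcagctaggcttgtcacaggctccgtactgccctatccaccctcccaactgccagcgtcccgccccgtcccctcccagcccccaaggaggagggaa
Slpi: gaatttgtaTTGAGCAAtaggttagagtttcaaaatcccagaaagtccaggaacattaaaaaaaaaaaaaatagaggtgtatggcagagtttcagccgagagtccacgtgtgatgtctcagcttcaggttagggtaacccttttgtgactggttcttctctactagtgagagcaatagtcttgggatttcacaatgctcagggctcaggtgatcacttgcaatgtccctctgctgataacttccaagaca
S100a9: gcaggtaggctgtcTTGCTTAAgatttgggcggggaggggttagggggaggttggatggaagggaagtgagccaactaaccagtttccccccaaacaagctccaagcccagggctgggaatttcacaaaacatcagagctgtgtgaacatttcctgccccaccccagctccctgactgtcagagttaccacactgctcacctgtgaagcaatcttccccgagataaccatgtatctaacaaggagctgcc

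The C/EBP motif began 131 bases before the start in Hcls1, 161 in Pltp, 241 in Slpi and 236 in S100a9, and Pltp also held GAGGAA 248 bases before its start. The C/EBP motif was in 5 of 23 windows of genes called higher below (21.7%) and in 7 of 31 windows of genes called lower (22.6%), against 7.71% of 11235 windows of all tested genes. It was in 9.56% of all 32851 windows of the table. For the longer lists called without the bright arrays it was in 9.84% of windows of genes called higher and 9.68% of genes called lower. Windows were found for 19 of 20 genes called higher and 23 of 28 called lower. GAGGAA was in 4 of 23 windows of genes called higher (17.4%), 4 of 31 of genes called lower (12.9%) and 22.6% of windows of all tested genes. These are matches of letters only, and every promoter shown is one that held a C/EBP match. Among other named genes called higher, the windows of Cx3cr1, Folr2, Pld4, Nr1h3, Ctsa, Fgd2 and Atg4d held neither motif. Among those called lower, the windows of Cxcl2, Il1r2, Hdc, Asprv1, Chil1, Csta2 and Slc27a1 held neither.

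Macrophage genes that the score did not use were described first. C1qa, the remaining chain of C1q, ran from 10.35 to 11.51 with a median of 10.87 log2 intensity in macrophage-high tumours, and from 9.22 to 10.70 with a median of 10.38 in macrophage-low tumours. Of 9 macrophage-high tumours, 8 lay above the highest of the macrophage-low tumours, and the difference was 0.73 ± 0.19 (standard error, limma; adjusted p = 0.067). Without the bright arrays it was 0.81 ± 0.21 (limma, adjusted p = 0.0489). Within label groups, C1qa was at -0.05 in young irradiated, 1.41 in middle-aged unirradiated and 0.85 in young unirradiated tumours. As a chain of the same protein as the score genes C1qb and C1qc, C1qa is no independent check of the label. Csf1r, the receptor for the macrophage growth factor, ran from 8.94 to 10.05 with a median of 9.55 in macrophage-high tumours, and from 8.21 to 10.05 with a median of 9.23 in macrophage-low tumours. The ranges of Csf1r overlapped to the top, and its difference of 0.47 ± 0.20 did not pass (limma, adjusted p = 0.219; 0.44 without the bright arrays).

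Adgre1 encodes an adhesion receptor widely used to mark mouse macrophages. It ran from 8.57 to 10.35 with a median of 9.28 in macrophage-high tumours, and from 8.23 to 10.36 with a median of 9.34 in macrophage-low tumours. The difference was 0.06 ± 0.27 (limma, adjusted p = 0.938), 0.01 without the bright arrays, and it was below 0 under some other settings. Mrc1, the mannose receptor, differed by 0.23 ± 0.21 (limma, adjusted p = 0.593; 0.37 without the bright arrays) and was negative with the replicate number as a block. Cd68 is not analysed here. Of these 4 genes, 0 passed with all 18 tumours and C1qa passed without the bright arrays. Macrophage-high therefore means high in the 4 score genes, and not in every macrophage marker.

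**Figure D2:**
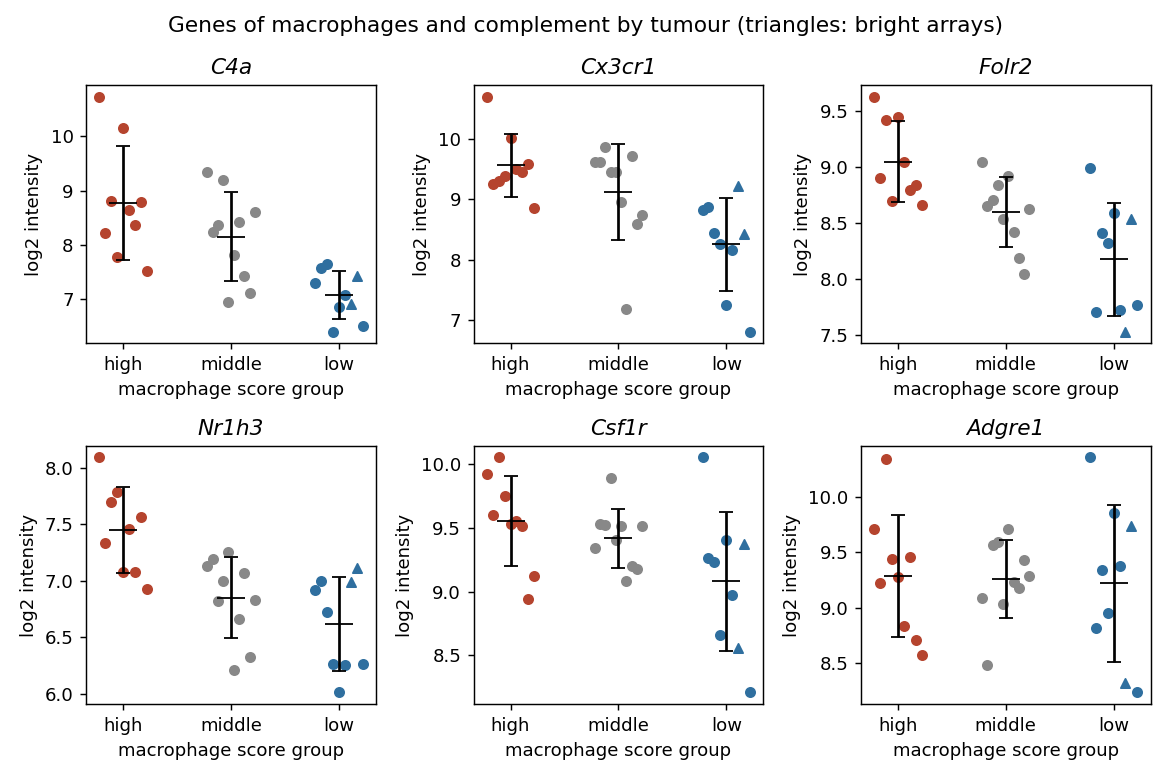
Each panel shows 1 gene in log2 intensity, with a point for each macrophage-high, middle-ranked and macrophage-low tumour, a bar for the mean and whiskers for 1 SD. The medians of Cx3cr1 were 9.46 in macrophage-high and 8.42 in macrophage-low tumours, while those of Adgre1 were 9.28 and 9.34.

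Across all genes, 10903 were tested, and limma with Benjamini-Hochberg adjustment called 20 higher (0.183%) and 28 lower (0.257%) in macrophage-high tumours at an adjusted p under 0.05. Without the bright arrays 122 were called higher (1.12%) and 122 lower (1.12%). Of the 48 genes called with all 18 tumours, 47 were also called without the bright arrays, and all 48 had the same direction. At an unadjusted p under 0.05 there were 1968 genes, and 2569 without the bright arrays. The median difference over all tested genes was -0.01 on the log2 scale.

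The number of calls moved with single tumours, and 374 further genes had an adjusted p between 0.05 and 0.1. With 1 tumour left out at a time, all 48 genes kept their direction each time. The 48 genes were called on these same tumours, so kept directions here and without the bright arrays are only a description. Between 1 and 6 genes were called higher and between 0 and 10 lower when middle-aged irradiated replicate 1, middle-aged unirradiated replicate 1, 2, 3, 5 or 6, young irradiated replicate 3 or young unirradiated replicate 3, 8 or 10 was left out. Between 21 and 59 were called higher and between 49 and 76 lower without middle-aged irradiated replicate 2, young irradiated replicate 5 or young unirradiated replicate 6, 7 or 9. Without young unirradiated replicate 1 there were 8 higher and 22 lower, and without young irradiated replicate 1 or 2 there were 16 and 26 higher with 24 and 29 lower. A fit with the label groups as a covariate called 0 in either direction, and all 48 genes again kept their direction.

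Among genes called higher, the largest difference was that of C4a, a complement C4 gene. It ran from 7.51 to 10.73 with a median of 8.64 in macrophage-high tumours, and from 6.40 to 7.64 with a median of 7.08 in macrophage-low tumours. The difference was 1.70 ± 0.34 (limma, adjusted p = 0.0433; 1.72 without the bright arrays), and 8 of 9 macrophage-high tumours lay above the highest macrophage-low tumour. The near-identical C4b differed by 1.24 ± 0.32 (limma, adjusted p = 0.0676; 1.27 without the bright arrays), and probes of these copies may share transcripts. A further detected probe of C4a gave 1.18 ± 0.35.

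Cx3cr1, the fractalkine receptor of monocytes and macrophages, ran from 8.85 to 10.70 with a median of 9.46 in macrophage-high tumours, and from 6.81 to 9.23 with a median of 8.42 in macrophage-low tumours. The difference was 1.31 ± 0.28 (limma, adjusted p = 0.0479), and 1.47 without the bright arrays. Of the macrophage-high tumours, 8 of 9 lay above all macrophage-low tumours. Folr2, the folate receptor of tissue macrophages, ran from 8.66 to 9.63 with a median of 8.90 in macrophage-high tumours, and from 7.53 to 8.99 with a median of 8.32 in macrophage-low tumours. Its difference was 0.87 ± 0.19 (limma, adjusted p = 0.0479; 0.83 without the bright arrays), and a further detected probe of Folr2 gave 0.82 ± 0.21. Hcls1, an actin regulator of blood cells, differed by 0.66 ± 0.11 (limma, adjusted p = 0.0387; 0.68 without the bright arrays).

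Lipid handling genes of phagocytes were among those called higher. Nr1h3 encodes the oxysterol receptor LXR-alpha. It ran from 6.93 to 8.09 with a median of 7.46 in macrophage-high tumours, and from 6.01 to 7.11 with a median of 6.72 in macrophage-low tumours, a difference of 0.83 ± 0.18 (limma, adjusted p = 0.0479; 0.96 without the bright arrays). Pltp, the phospholipid transfer protein and a known target of LXR, ran from 6.71 to 8.26 with a median of 7.52 in macrophage-high tumours, and from 6.02 to 7.35 with a median of 6.58 in macrophage-low tumours. It too differed by 0.83 ± 0.18 (limma, adjusted p = 0.0479; 0.88 without the bright arrays). Apoe, a further LXR target, differed by 0.83 ± 0.24 and did not pass (limma, adjusted p = 0.0877; 0.78 without the bright arrays).

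The remaining named genes called higher were Ctsa (cathepsin A of lysosomes, 0.99), Fgd2 (an activator of Cdc42 in antigen-presenting cells, 0.95), Pld4 (an exonuclease of endolysosomes, 0.89), Tmem273 (0.86), Tmx1 (a redox protein of the endoplasmic reticulum, 0.84) and Atg4d (an autophagy protease, 0.63). Without the bright arrays these differences were 1.00, 0.92, 0.84, 0.79, 0.97 and 0.57. For Ctsa the value holds for the brightest probe only, since 4 other detected probes gave differences between -0.07 and 0.23. A further probe of Tmem273 gave 0.07. Of the 20 genes called higher, 8 (40%) were undetected on all 6 LLC cell arrays, against 9.79% of all tested genes, and C4a, Cx3cr1, Folr2, Fgd2, Pld4, Tmem273 and Hcls1 were among these 8. Of the 122 called higher without the bright arrays, 30.3% were undetected on the LLC cells.

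Genes called lower included neutrophil genes. Slpi, an inhibitor of neutrophil proteases, ran from 7.13 to 9.72 with a median of 8.52 in macrophage-high tumours, and from 9.54 to 11.79 with a median of 10.08 in macrophage-low tumours. The difference was -2.01 ± 0.36 (limma, adjusted p = 0.0387; -2.08 without the bright arrays), and 8 of 9 macrophage-high tumours lay below all macrophage-low tumours. Slpi was also detected on all 6 LLC cell arrays. S100a9, a subunit of calprotectin, ran from 8.24 to 10.85 with a median of 9.50 in macrophage-high tumours, and from 9.89 to 12.54 with a median of 11.39 in macrophage-low tumours. It differed by -1.84 ± 0.39 (limma, adjusted p = 0.0479; -1.82 without the bright arrays), and 5 of 9 macrophage-high tumours lay below all macrophage-low tumours.

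Cxcl2, a chemokine that attracts neutrophils through the receptor encoded by Cxcr2, ran from 6.13 to 8.54 with a median of 7.11 in macrophage-high tumours, and from 8.06 to 10.42 with a median of 8.78 in macrophage-low tumours. The difference was -1.85 ± 0.36 (limma, adjusted p = 0.0427; -1.88 without the bright arrays), and a further probe gave -1.95 ± 0.34. Its relative Cxcl1 differed by -1.14 ± 0.28 and Cxcr2 (detected on 1 of 9 macrophage-high arrays) by -0.94 ± 0.31, and neither passed (limma, adjusted p = 0.0567 and 0.117; -1.03 and -0.86 without the bright arrays). Hdc, which makes histamine in mast cells and neutrophils, differed by -1.44 ± 0.29 (limma, adjusted p = 0.0427; -1.50 without the bright arrays). Il1r2, a decoy receptor for interleukin-1 on neutrophils, differed by -1.09 ± 0.21 (limma, adjusted p = 0.0413; -1.03 without the bright arrays). For Hdc 7 and for Il1r2 6 of 9 macrophage-high tumours lay below every macrophage-low tumour.

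Further genes were also called lower, none of them in the neutrophil list described below, and which cells carried them was not tested. Slc7a11, the cystine transporter, ran from 5.35 to 7.70 with a median of 6.49 in macrophage-high tumours, and from 6.98 to 9.37 with a median of 7.75 in macrophage-low tumours, a difference of -1.64 ± 0.32 (limma, adjusted p = 0.0427; -1.51 without the bright arrays). Its other detected probes gave -0.89 and 0.24. The further named genes called lower were Asprv1 (an aspartic protease, -1.22), Chil1 (a chitinase-like protein, -1.04), Rdh12 (a retinol dehydrogenase, -0.93), Slc27a1 (a fatty acid transporter, -0.90) and Ppp1r3b (a glycogen-targeting subunit of protein phosphatase 1, -0.90). Without the bright arrays these were -1.38, -1.12, -0.98, -0.98 and -0.95. Csta2, a cystatin, was not detected on any macrophage-high array and on 7 of 9 macrophage-low arrays, at least 1.4-fold lower (measured difference -0.98, limma, adjusted p = 0.0479; -0.80 without the bright arrays). Asprv1, Chil1 and Rdh12 were detected on 1, 1 and 2 of 9 macrophage-high arrays, so their differences are compressed by background. Of the 28 genes called lower, 9 (32.1%) were undetected on all 6 LLC cell arrays, and 14.8% of the 122 called lower without the bright arrays.

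**Figure D3:**
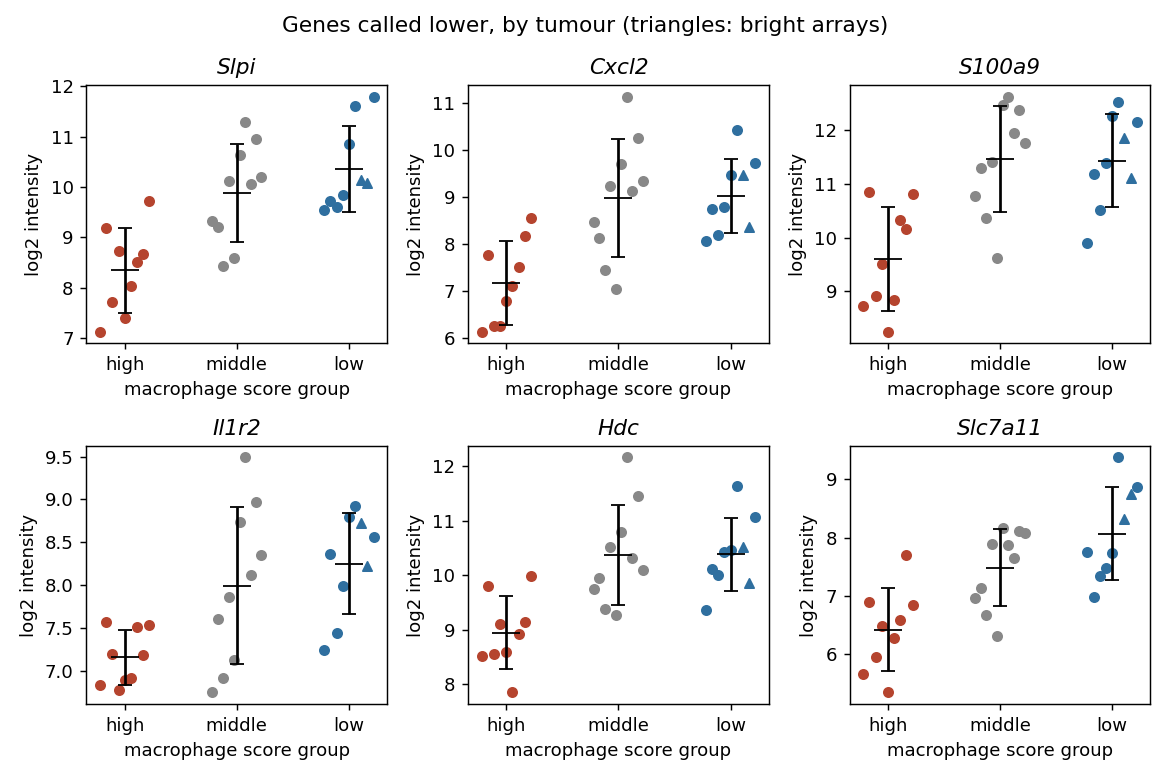
Each panel shows 1 gene called lower in log2 intensity, with a point for each macrophage-high, middle-ranked and macrophage-low tumour, a bar for the mean and whiskers for 1 SD. The middle-ranked tumours spanned 8.43 to 11.28 for Slpi and 9.62 to 12.63 for S100a9, overlapping both groups.

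All 9 macrophage-high tumours lay above all 9 macrophage-low tumours for 3 of the 10903 tested genes. These were Ppil1, Nudt2 and Pdrg1, named here after their values were seen, with differences of 0.61, 0.50 and 0.35 (0.63, 0.42 and 0.36 without the bright arrays). All 9 macrophage-high tumours lay below all 9 macrophage-low tumours for 7 of the 10903 tested genes. These were Ankib1, Isl1, Gata6, Ubp1, Mtpap, Lrp12 and Zfp281, with differences from -0.78 for Gata6 to -0.28 for Mtpap (-0.84 and -0.24 without the bright arrays). The shares called by limma, a different measure, were 0.183% higher and 0.257% lower. None of these 10 genes belongs to the lists below.

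Gene lists were then described by counts and medians, beside the median of -0.01 over all tested genes. Of all tested genes, 48.7% were above 0, or 48.2% without the bright arrays. The shares called over all tested genes were 0.183% higher and 0.257% lower, or 1.12% each without the bright arrays. In each bulk tumour piece, fewer cells of a type and less RNA per cell cannot be told apart. Of 23 tested genes of macrophage identity, 20 were above 0, 1 was called higher (Cx3cr1) and the median was 0.30 (0.37 without the bright arrays, with 3 called). Aif1, a calcium-binding protein of macrophages, and Fcgr1, the high-affinity Fc receptor, differed by 0.85 ± 0.23 and 0.74 ± 0.25 with all 18 tumours and did not pass (limma, adjusted p = 0.0795 and 0.13). They were called once the bright arrays were left out, at 1.00 ± 0.24 and 0.96 ± 0.22 (limma, adjusted p = 0.0425 and 0.0385). Trem2 and Vsig4, receptors of tissue macrophages, differed by 0.73 ± 0.21 and 1.10 ± 0.33 and did not pass (limma, adjusted p = 0.0872 and 0.091; 0.71 and 1.19 without the bright arrays). Of the 23 genes, 17 were undetected on all LLC cell arrays.

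Of 13 tested Fc receptors and adaptors, 12 were above 0 with a median of 0.34, and 0 were called. The median without the bright arrays was 0.45, and 3 were called, Fcgr1, Fcgr2b and Clec4a3. Clec4a3, a C-type lectin of myeloid cells, ran from 7.38 to 8.42 in macrophage-high tumours and from 6.35 to 8.27 in macrophage-low tumours, with 7.40 the highest of the macrophage-low tumours once the bright arrays were left out. All 4 tested NADPH oxidase genes were above 0 (median 0.39, or 0.44 without the bright arrays, 0 called), with Cyba, a subunit of the oxidase in the membrane, at 0.31 ± 0.09 (limma, adjusted p = 0.0785; 0.31 without the bright arrays). Of 21 pan-leukocyte genes, 16 were above 0 with a median of 0.26 and 1 called, Hcls1 (0.34 without the bright arrays, with Lcp1 called too).

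No antigen presentation gene passed the test, and 1 of them, H2-K1, a heavy chain of class I molecules, was below 0 (-0.07 ± 0.20, and 0.04 without the bright arrays). All 8 tested MHC class II genes were above 0, with a median of 0.75 (0.90 without the bright arrays) and 0 called. Cd74, the invariant chain, ran from 10.76 to 12.95 with a median of 11.01 in macrophage-high tumours, and from 9.15 to 11.75 with a median of 9.89 in macrophage-low tumours (difference 1.18 ± 0.36; limma, adjusted p = 0.0963; 1.39 without the bright arrays). H2-Ab1 and H2-Eb1, chains of class II molecules, differed by 0.98 ± 0.32 and 1.06 ± 0.36 (limma, adjusted p = 0.116 and 0.13; 1.07 and 1.18 without the bright arrays). For MHC class I, 12 of 13 genes were above 0 with a median of 0.37 (0.47 without the bright arrays) and 0 called, and Psmb10, a subunit of the immunoproteasome, differed by 0.45 ± 0.11 (limma, adjusted p = 0.0582; 0.47 without the bright arrays).

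Of 18 interferon response genes, 14 were above 0 with a median of 0.24 and 0 called. The median without the bright arrays was 0.52, and Isg15, a ubiquitin-like protein, was called at 1.36 ± 0.30 (limma, adjusted p = 0.0344). With all 18 tumours Isg15 differed by 0.96 ± 0.35 (limma, adjusted p = 0.168), and it was at -0.02 with the replicate number as a block. Of 11 phagocyte lipid genes 10 were above 0, with a median of 0.21 (0.42 without the bright arrays) and the 2 calls given above in both fits. Of 10 complement genes in the list, 9 were above 0, with a median of 0.20 (0.35 without the bright arrays) and 0 called. C1qa was the 1 call without the bright arrays. The list holds C4b but not C4a, which was called higher as given above, nor the score genes C1qb and C1qc.

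Lysosomal genes lay nearer the median of all genes. Of 22 tested, 13 were above 0, the median was 0.09 (0.11 without the bright arrays), and 1 was called, Ctsa. Ctsh, a cathepsin, differed by 0.66 ± 0.20 with all 18 tumours (limma, adjusted p = 0.0972) and was called without the bright arrays at 0.84 ± 0.19 (limma, adjusted p = 0.0385). Lyz1, a near-identical copy of the score gene Lyz2, is 1 of the 22 (0.38 ± 0.16, and 0.13 without the bright arrays). Of the 21 other genes, 12 were above 0 with a median of 0.06 (0.09 without the bright arrays).

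Polarization genes pointed both ways. Of 14 alternative activation genes, 8 were above 0 with a median of 0.10 (0.04 without the bright arrays), and 1 was called, Folr2. Gas6, a ligand of TAM receptors, was at 1.03 ± 0.27 (limma, adjusted p = 0.0728; 0.91 without the bright arrays), while Arg1 (arginase) and Mmp12 (a metalloelastase) were at -0.38 ± 0.15 and -0.87 ± 0.34 (limma, adjusted p = 0.195 and 0.185; -0.36 and -0.83 without the bright arrays). Of 13 classical activation genes, 7 were above 0 with a median of 0.06 (0.20 without the bright arrays) and 0 called. Il1b, interleukin-1 beta, was at -1.06 ± 0.31 and Acod1, which makes itaconate, at -0.63 ± 0.19 (both limma, adjusted p = 0.0907; -0.82 and -0.48 without the bright arrays), while Cd40 and Irf5 were at 0.45 ± 0.19 and 0.38 ± 0.15 (limma, adjusted p = 0.215 and 0.185; 0.55 and 0.47 without the bright arrays).

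Chemokines also pointed both ways. Of 13 CC and CX3C genes, 6 were above 0 with a median of -0.04 and Cx3cr1 called (0.04 without the bright arrays, with Ccl9 called too). Ccl4, Ccl3 and Ccl2, which attract lymphocytes and monocytes, were at -0.83 ± 0.25, -0.99 ± 0.35 and -0.65 ± 0.23, and none passed (limma, adjusted p = 0.0907, 0.146 and 0.157; -0.75, -0.90 and -0.46 without the bright arrays). Of 9 CXC genes, 4 were above 0 with a median of -0.09 (-0.06 without the bright arrays), and Cxcl2 was called lower. Among myeloid transcription factors, Cebpa was at 0.62 ± 0.16 and Cebpb at -0.58 ± 0.15 (both limma, adjusted p = 0.0676; 0.68 and -0.44 without the bright arrays), and the median of 10 was 0.28 with 0 called (0.27 without the bright arrays, with Nfam1 called).

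Markers of some other cells also differed between the groups, and their part in the differences above was not tested. Of 16 neutrophil genes, 0 were above 0, 4 were called lower (Slpi, Il1r2, Hdc and S100a9) and the median was -1.01 (-0.95 without the bright arrays, with 1 above 0 and 4 called). The mean of the neutrophil list ran from 6.38 to 7.54 with a median of 6.94 in macrophage-high tumours, and from 7.02 to 8.83 with a median of 7.95 in macrophage-low tumours. Of 7 red blood cell genes, 0 were above 0, with a median of -0.74 (-0.77 without the bright arrays) and 0 called. Alas2, the first enzyme of haem synthesis in red cells, ran from 5.67 to 9.41 in macrophage-high tumours and from 5.85 to 12.50 in macrophage-low tumours (difference -1.86 ± 0.72; limma, adjusted p = 0.184; -1.93 without the bright arrays). Within label groups, Alas2 was at 0.26 in young irradiated, -0.21 in middle-aged unirradiated and -2.87 in young unirradiated tumours. Slc4a1, also of the red blood cell list, was at 0.07, 0.71 and -3.44 in the same order. Their lower values thus came mainly from young unirradiated tumours.

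All 14 hypoxia response genes were below 0, with a median of -0.38 (-0.41 without the bright arrays) and 0 called. Vegfa, the growth factor of blood vessels, ran from 8.61 to 10.52 with a median of 9.61 in macrophage-high tumours, and from 9.92 to 11.21 with a median of 10.61 in macrophage-low tumours. It differed by -0.97 ± 0.22 with all 18 tumours (limma, adjusted p = 0.0516) and was called lower without the bright arrays at -1.04 ± 0.24 (limma, adjusted p = 0.0385). Adm (adrenomedullin) was likewise at -1.37 ± 0.39 (limma, adjusted p = 0.0854) and called lower at -1.66 ± 0.38 without the bright arrays (limma, adjusted p = 0.0397). Of 18 endothelial genes, 6 were above 0 with a median of -0.23 and 0 called (-0.32 without the bright arrays, with Vwf and Robo4 called lower). Vwf, the von Willebrand factor, was at -0.73 ± 0.24 (limma, adjusted p = 0.118) and at -0.93 ± 0.22 without the bright arrays (limma, adjusted p = 0.0437).

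Of 7 mast cell genes, 6 were above 0 with a median of 0.68 (0.74 without the bright arrays) and 0 called, and Tpsb2, a tryptase, was at 0.92 ± 0.39 (limma, adjusted p = 0.216; 0.81 without the bright arrays). Tpsb2 was detected on 6 of 9 macrophage-high and 2 of 9 macrophage-low arrays. Within label groups, Tpsb2 was at -0.28 in young irradiated, 1.59 in middle-aged unirradiated and 1.86 in young unirradiated tumours. Cpa3 and Mcpt4, also of the mast cell list, were at -1.63 and -1.87 in young irradiated tumours and above 0 in the other groups. Of 19 fibroblast and collagen genes, 14 were above 0 with a median of 0.29 (0.28 without the bright arrays) and 0 called, with Col1a1 at 1.00 ± 0.40 and Fap at -0.63 ± 0.22 (limma, adjusted p = 0.2 and 0.15; 0.82 and -0.72 without the bright arrays). Skeletal muscle genes had a median of 0.00 over 15 genes (-0.20 without the bright arrays), and 5 of the 18 tumours had a list mean over 8. The muscle mean ran from 5.37 to 11.28 in macrophage-high and from 5.41 to 11.41 in macrophage-low tumours, so muscle-rich pieces lay in both groups. Without these 5 tumours 4 genes were called higher and 11 lower.

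**Figure D4:**
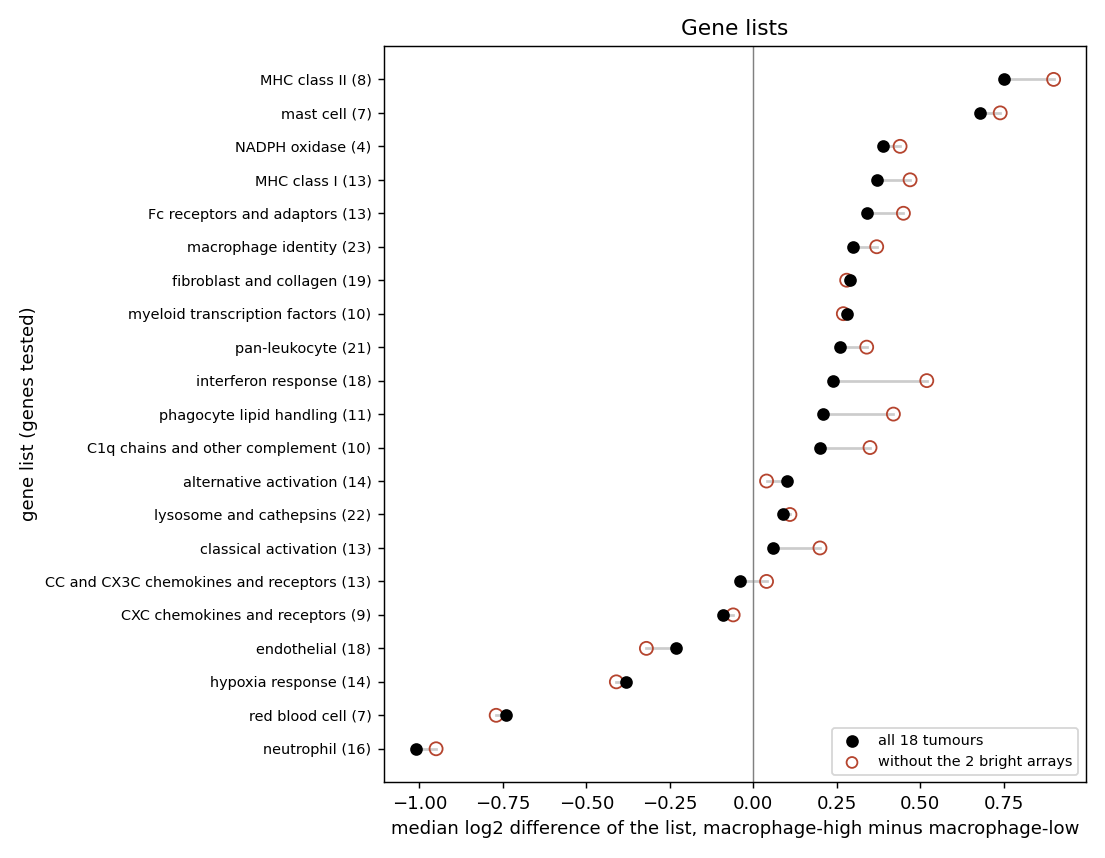
Points give the median log2 difference of each gene list, macrophage-high minus macrophage-low, with the number of genes tested in brackets. Filled points use all 18 tumours and open points leave out the bright arrays. MHC class II had the highest median shown at 0.75 and neutrophil genes the lowest at -1.01.

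Host age and irradiation were compared on the score itself, since the labels had no part in it. Young irradiated tumours scored 12.59 ± 0.43 and young unirradiated tumours 12.62 ± 0.32 (SD, n = 6 and 10), a difference of -0.03 (exact two-sided permutation test, p = 0.896). Middle-aged irradiated tumours scored 12.80 ± 0.15 and middle-aged unirradiated tumours 12.65 ± 0.56 (SD, n = 5 and 7), a difference of 0.15 (exact permutation p = 0.591). In unirradiated mice the difference of middle-aged minus young was 0.04 (exact permutation p = 0.873), and in irradiated mice it was 0.21 (exact permutation p = 0.394). With the bright arrays left out these 4 differences were 0.14, 0.05, 0.14 and 0.04. After adjustment over these 4 comparisons p was 0.896 for each in the exact permutation test. The first 3 differences changed sign under other settings, so no direction is read from them. Of 5 middle-aged irradiated tumours, 2 were in the macrophage-high group and 0 in the macrophage-low group, while of 10 young unirradiated tumours 2 were high and 5 low.

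**Figure D5:**
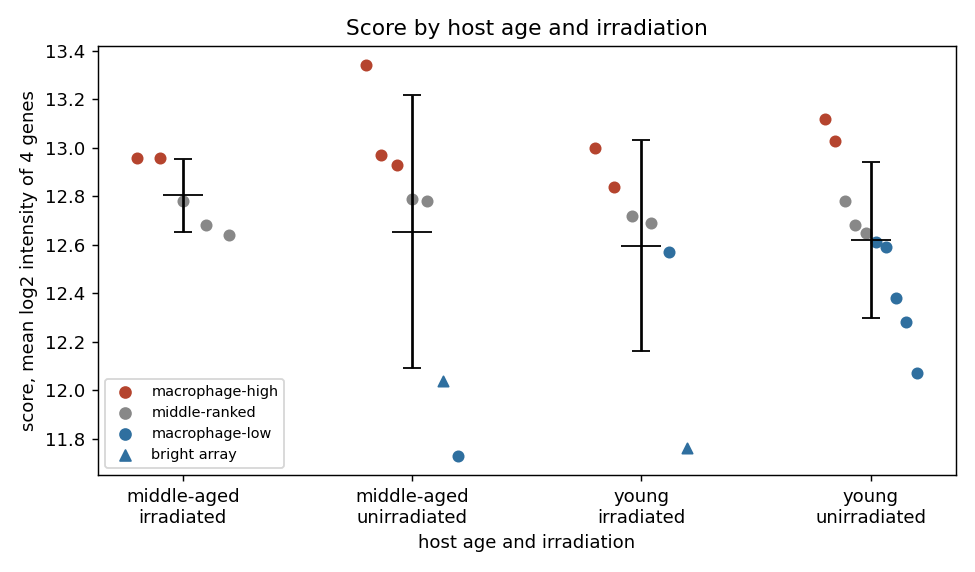
The vertical axis is the score in log2 intensity. Points are tumours, coloured by macrophage score group, with a bar for the mean and whiskers for 1 SD of each label group. The means lay between 12.59 and 12.80, and the groups overlapped.

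Since the groups mixed ages and treatments, differences were also taken within each label group that held both kinds of tumour. All 20 genes called higher were above 0 and all 28 called lower were below 0 in young irradiated (2 high, 2 low), middle-aged unirradiated (3 high, 2 low) and young unirradiated tumours (2 high, 5 low). Over all tested genes, between 48.7% and 50.2% were above 0 in these groups. These tumours are those that made the calls, so the counts are a description. The sizes differed: the median over genes called higher was 0.36 in young irradiated, 0.82 in middle-aged unirradiated and 0.64 in young unirradiated tumours. C4a differed by 0.11, 3.18 and 1.47 in these groups, and S100a9 by -0.65, -2.97 and -1.58. With the bright array left out, 19 of 20 genes called higher were above 0 in young irradiated tumours, where C4a was at 0.00.

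The 10 middle-ranked tumours had no part in the groups, and their slope on the score was fitted with limma. Their scores spanned only 12.64 to 12.79, and 0 genes were called, with 1572 at an unadjusted p under 0.05 and a lowest adjusted p of 0.152 (limma). Of the 20 genes called higher between the groups, 20 had a slope above 0, against 52.8% of all tested genes. Of the 28 called lower, 27 had a slope below 0, against 47.2% of all tested genes. At an unadjusted p under 0.05 with the same direction were 4 of 20 genes called higher, against 6.69% of all tested genes, and 16 of 28 called lower, against 7.73%. Slpi, S100a9 and Cxcl2 had slopes below 0, and Cx3cr1 and C4a above 0, while Adgre1 had a slope below 0. Score and genes were read from the same arrays here too.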

How the data were processed

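Transcripts were measured on Illumina Mouse WG-6 arrays with RNA from tumour pieces, per the labels' protocols. The authors deposited an average intensity and a detection p-value per probe, per the file headers. These were not normalized between arrays, as far as the values show: the tumours' 75th percentiles ran from 91.6 to 1123. GenomeStudio is named in the submitters' processing notes. Their normalized intensity was deposited separately, and the series text calls the method rank variant normalization. Its scale and floor are not given in the sources used here, and 1036 of its values were at or below 0. It supplied the score and 1 alternative.

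For all else, the deposited intensity was background-corrected by normexp with detection p-values (offset 16), quantile normalized over 36 arrays and put on the log2 scale (limma 3.58.1, R 4.3.3). A gene was represented by its brightest probe, and the 10903 genes whose probe had a detection p-value under 0.05 in 5 or more tumours were tested. Of 45281 probes, 34885 were paired with 1 gene symbol, 18 with several, and 10378 were unnamed here. Groups were compared with limma and Benjamini-Hochberg adjustment, and the fit was tested on simulated data. Where no array of a group detected a probe, its fold is a bound set by each array's lowest detected signal. The number of arrays limits the precision.

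The members and the 37 gene lists were chosen with earlier results of these data known. Genes were named by a fixed rule: the 12 largest calls in each direction, up to 4 members of smallest p per described list, and C1qa, Csf1r, Cd68, Adgre1 and Mrc1. Alternatives are given in the closing section. Ranking again after leaving out the bright arrays, the score comparisons without them, and the lysosome list without Lyz1, were chosen after seeing the data.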

Additional observations from a re-analysis of the deposited data

Results flagged for a closer look

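Of 102 sets of values from 1 group of tumours, 6 had a lone tumour far from the others, and chance gives about 1 in 20. Young irradiated replicate 2, a bright array, had a score of 11.76, with 12.57 the next lowest of its label group. Among macrophage-high tumours, middle-aged unirradiated replicate 3 stood alone at 8.43 for Fgd2 (next highest 7.70) and at 8.68 for the mean of the phagocyte lipid list (next highest 8.35); it also had the highest score of all. In the same group, Atg4d was at 7.94 in middle-aged irradiated replicate 2 (next lowest 8.17), and Slc27a1 at 6.45 in young unirradiated replicate 3 (next lowest 7.20). Among macrophage-low tumours, young irradiated replicate 5 had a mean of 7.46 for the mast cell list, with 6.25 the next highest.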

How the results depend on the processing

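All 48 called genes kept their direction under each setting tried, except that 47 did with the median of a gene's detected probes, where Ctsa was at -0.03. These settings reuse arrays on which the genes were called, so kept directions are a description and no independent evidence. The number of calls moved widely. Genes called higher and lower numbered 51 and 28 with the authors' values, 58 and 73 without background correction, 1 and 3 with median scaling, 1 and 1 without the detection filter, 20 and 25 with the median of probes, 0 and 0 with the label group as a covariate, 200 and 232 with array brightness as a covariate, and 58 and 53 with array weights. They numbered 646 and 739 when the groups were formed again from neqc values, which kept 7 of 9 macrophage-high and 5 of 9 macrophage-low tumours, 29 and 59 with 8 tumours a side, 495 and 614 with 14 a side, and 267 and 263 for a slope over 28 tumours. They numbered 4 and 11 without muscle-rich tumours, 122 and 122 without the bright arrays, and 204 and 315 with the bright arrays left out before ranking, a setting chosen after seeing the data. Leaving out 1 tumour at a time gave between 1 and 59 higher and between 0 and 76 lower. The cause of these moves was not tested. Median scaling shifted the median of all genes to 0.05.

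With the replicate number as a block, 0 genes were called higher and 0 lower, and the numbers did not pair the tumours (10 of 34 same-numbered pairs had a correlation of deviations over 0.1, with a median of 0.01). The score differences under the block were -0.11 for irradiation in young, -0.01 for irradiation in middle-aged, -0.03 for age in unirradiated and 0.23 for age in irradiated mice.

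The score difference for irradiation in young mice was 0.22 with neqc values, 0.11 without Lyz2 and Laptm5, 0.14 without the bright arrays, and -0.11 to 0.14 with 1 tumour left out. For irradiation in middle-aged mice it was -0.03 with neqc values and -0.01 to 0.26 with 1 tumour left out. For age in unirradiated mice it was -0.08 to 0.19, and for age in irradiated mice 0.04 to 0.29, with 1 tumour left out. No score comparison passed under any setting tried. In the middle-ranked tumours, the slope called 1 gene without the detection filter and 0 under the other settings.

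Among named genes, none of the reversals touched a call except that of Ctsa. With the replicate block Isg15 was at -0.02, Cpa3 at -0.74, Mcpt4 at -0.52, Fcer1a at -0.33, Cfb at -0.11, Mrc1 at -0.27 and Adgre1 at -0.23. With groups formed again from neqc values Lox was at -0.33, Lyz1 at -0.03 and Serping1 at -0.07. With 14 a side Serping1 was at -0.01 and Adgre1 at -0.04. Adgre1 was at -0.01 with the bright arrays left out before ranking, and between -0.07 and 0.20 with 1 tumour left out, with -0.07, -0.06 and -0.05 without young unirradiated replicate 9, middle-aged unirradiated replicate 6 and middle-aged unirradiated replicate 1. Signals near background compress differences of dim genes.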

Other observations

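Genes of metabolism and growth lay near the median of -0.01 over all genes. The median difference, macrophage-high minus macrophage-low, was 0.04 for 22 cell cycle genes, 0.04 for 10 glycolysis genes, 0.03 for 17 oxidative phosphorylation genes and 0.06 for 14 p53 targets, with 0 called in each list. Without the bright arrays these medians were 0.06, -0.04, 0.01 and 0.05, again with 0 called. It was 0.15 for 14 cytosolic ribosomal proteins (0.06 without the bright arrays) and -0.11 for 13 heat shock proteins (-0.17 without them), of which 2 were above 0. Of 9 monocyte genes, 2 were above 0 with a median of -0.10 (5 and 0.04 without the bright arrays), and of 10 LLC epithelial and carcinoma genes, 4 were above 0 with a median of -0.18 (-0.17 without them). T and NK cell genes had a median of 0.11 over 8 genes with 0 called, and 0.19 without the bright arrays. Prf1, the perforin of cytotoxic lymphocytes, was then called lower at -1.14 ± 0.22 (limma, adjusted p = 0.0307), against -0.75 ± 0.30 with all 18 tumours (limma, adjusted p = 0.194), and it was detected on all 6 LLC cell arrays.

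The 2 dim arrays that were not ranked, young irradiated replicates 6 and 8, had a 75th percentile of signal of 91.6 and 102, with 11860 and 14828 detected probes, and scored 12.08 and 13.02 by the authors' values.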
